A study of Mus musculus with 8 samples.

Results

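The 48 genes described here drive or restrain the cell division cycle of cartilage cells, and they were taken by name from the 52325 Ensembl gene identifiers measured by RNA-seq in rib chondrocytes. They fall into 11 genes of the G1 phase and the entry into replication, 16 genes of DNA replication (S phase), 14 genes of G2 and mitosis (G2/M) and 7 inhibitors. Each symbol matched 1 identifier, and 46 of the 48 had a transcript level of 0.5 TPM or more in 4 or more libraries and were tested. E2f2, an activating E2F factor, and Cdkn2a, the gene of the kinase inhibitor p16 and of the p19 (ARF) protein, stayed under that filter.

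The study compared costal (rib) chondrocytes of 4 wild-type and 4 Mir140-null mice, all 7 d old. Their founders, of mixed C57BL/6 and CBA/ca strain, were backcrossed onto C57BL/6J for a number of generations that is not given. The null mice carry a germline CRISPR/Cas9 deletion of the Mir140 locus. Crosses of heterozygous mice gave wild-type and null lines, so line and genotype cannot be told apart. Cells were freed from the rib cartilage with collagenase, and stranded poly(A) libraries were made from their total RNA. The 8 libraries are named here by genotype and by the replicate number 1 to 4 of their labels.

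Growth cartilage lengthens a bone because its chondrocytes divide in columns before they enlarge, and withdrawal from the cycle is a step of their maturation. D-type cyclins with Cdk4 or Cdk6, and then E-type cyclins with Cdk2, phosphorylate the retinoblastoma protein and its relative p107 (Rb1, Rbl1) and so release E2F factors, which switch on replication genes. Cyclin A and the B-type cyclins with Cdk1 carry the cell through G2 and mitosis, and the CIP/KIP proteins (Cdkn1a, Cdkn1b, Cdkn1c) and INK4 proteins (Cdkn2a, Cdkn2c) hold these kinases back. The Mir140 locus, in an intron of Wwp2, makes miR-140-5p and miR-140-3p, which are abundant in cartilage.

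The values were TPM, transcript abundances scaled by transcript length and to the same library total. Levels can thus be set beside each other between genes, but between libraries they are shares that shift with the other transcripts. Median-ratio size factors of these TPM ran from 0.90 in null replicate 1 to 1.10 in null replicate 3, and scaling by them was an alternative fit. The values hold no read counts, so the depth behind a single value is unknown and no counting interval is given. The summed TPM of the 10 chondrocyte markers was 57550 to 72750 in wild-type and 43570 to 59440 in null libraries, mostly from Col2a1, the main cartilage collagen, at 34420 to 61630 TPM. Of the 10, the aggrecan gene Acan was called higher and Col9a1 and Hapln1 lower in the nulls, and Matn1 was the lowest in level, at 10.02 to 48.8 TPM. Mir140 itself was listed at 0 in 7 libraries, the wild-type ones among them, and at 8.86 TPM in Mir140-null replicate 2. A library made from poly(A) RNA is no measure of a mature miRNA. The source of the 8.86 TPM, in a library labelled as lacking the locus, was not tested. The values used here thus do not test the genotypes, which were taken from the labels. The paper reports that the mice were genotyped by ear-notch PCR and Sanger sequencing. It also reports qRT-PCR of the mature miRNAs in rib chondrocyte RNA, and several of those samples were used for the RNA-seq. The host gene of Mir140, Wwp2, had 380 ± 55.8 TPM in wild-type and 340 ± 56.5 TPM in null libraries (mean ± SD, n = 4 each), with an adjusted p of 0.487.

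Mir140-null replicates 1 and 2 stood apart from the other 6 libraries in genes of several other cell types, among them those of fibroblasts and perichondrium, the connective tissue around the cartilage. Col1a1, the main collagen of those tissues, had 47.9 and 50.1 TPM in these libraries against 793 to 1544 TPM in the others, and Postn, of the perichondrium, had 58.9 and 54.5 TPM against 367 to 984 TPM. The summed TPM of the 8 fibroblast or perichondrium markers was 3657 to 6572 in wild-type libraries, 1013 and 1199 in null replicates 1 and 2, and 5829 and 4453 in null replicates 3 and 4. Col1a2, Col3a1, Dcn and Dpt were also lowest in null replicates 1 and 2, but Lum and Pdgfra did not set them apart. Lum had 131.3 and 141.6 TPM there and 132.5 to 177.7 TPM in wild-type libraries. Pdgfra had 34.5 and 36.5 TPM there and 31.5 and 34.3 TPM in null replicates 3 and 4. Of the 8 markers, Pdgfra was called higher and Dcn lower in the null libraries. Null replicates 1 and 2 also had the lowest sums of osteoblast markers (5.5 and 3.9 TPM, the others 10.5 or more), endothelial markers (14.03 and 12.6 TPM, the others 16.3 or more), haematopoietic precursor markers (2.2 and 3.4 TPM, the others 5.2 or more) and erythroid markers (432 and 257 TPM, the others 646 or more). The haematopoietic precursor sums came mostly from Cd34 and Kit, while Mpo, Elane, Prtn3 and Gfi1b were at 0 to 0.45 TPM in all libraries. Myb, of the same list, was highest in null replicates 1 and 2 (0.66 and 0.63 TPM, the others 0.14 to 0.29). Null replicates 1 and 2 had the fewest genes at 0.5 TPM or more, 15800 and 16056, against 16991 to 17950. The mitochondrial share of TPM was 4.06% to 6.985% in wild-type and 8.41% to 10.1% in null libraries, without overlap. The summed TPM of the 10 leukocyte markers was 65.9 to 80.8 in wild-type and 32.0 to 50.6 in null libraries, with Cd74 and Lyz2 called lower, while the defining leukocyte genes Ptprc, Adgre1, C1qa and Cd3e were at or near 0. The summed TPM of the 8 skeletal muscle markers was 61.4 to 96.5 and 33.6 to 57.4, with the muscle regulator Myog near 0. The part of these differences between libraries and genotypes in the results below was not tested unless a value with and without the libraries is given. In RNA of mixed cells, fewer cells of a type and less RNA per cell cannot be told apart.

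Of the 46 tested members, 3 were higher and 2 were lower in Mir140-null chondrocytes at an adjusted p under 0.05 (limma, Benjamini-Hochberg adjusted over 17177 tested genes). The higher ones were Cdk6, Ccne2 and Cdkn1a, and the lower ones were Ccnd3 and Ccnb1. These calls are 6.52% and 4.35% of the tested members, beside 10.5% of all tested genes called higher and 6.4% called lower, so that neither share exceeded that of the transcriptome. The genotypes did not overlap in any library for 3 members with higher null values and 3 with lower null values, each 6.52% of the members, beside 15.7% and 10.2% of all tested genes. The direction was less even. The log2 fold change was below 0 for 35 of the 46 members (76.1%), beside 50.8% of all tested genes, and its median was -0.31 over the members and -0.01 over all tested genes. By phase the median was 0.02 for the G1 genes, -0.29 for the S genes, -0.49 for the G2/M genes and -0.12 for the inhibitors. The plot of fold changes by phase shows that the G1 genes spread to both sides of 0 and that the G2/M genes all lay under it. Members moved together across libraries, so these counts of direction are not counts of independent genes. Wild-type replicate 1 was the highest wild-type library for 31 of the 48 members, and null replicate 3 the highest null library for 33.

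**Figure D1:**
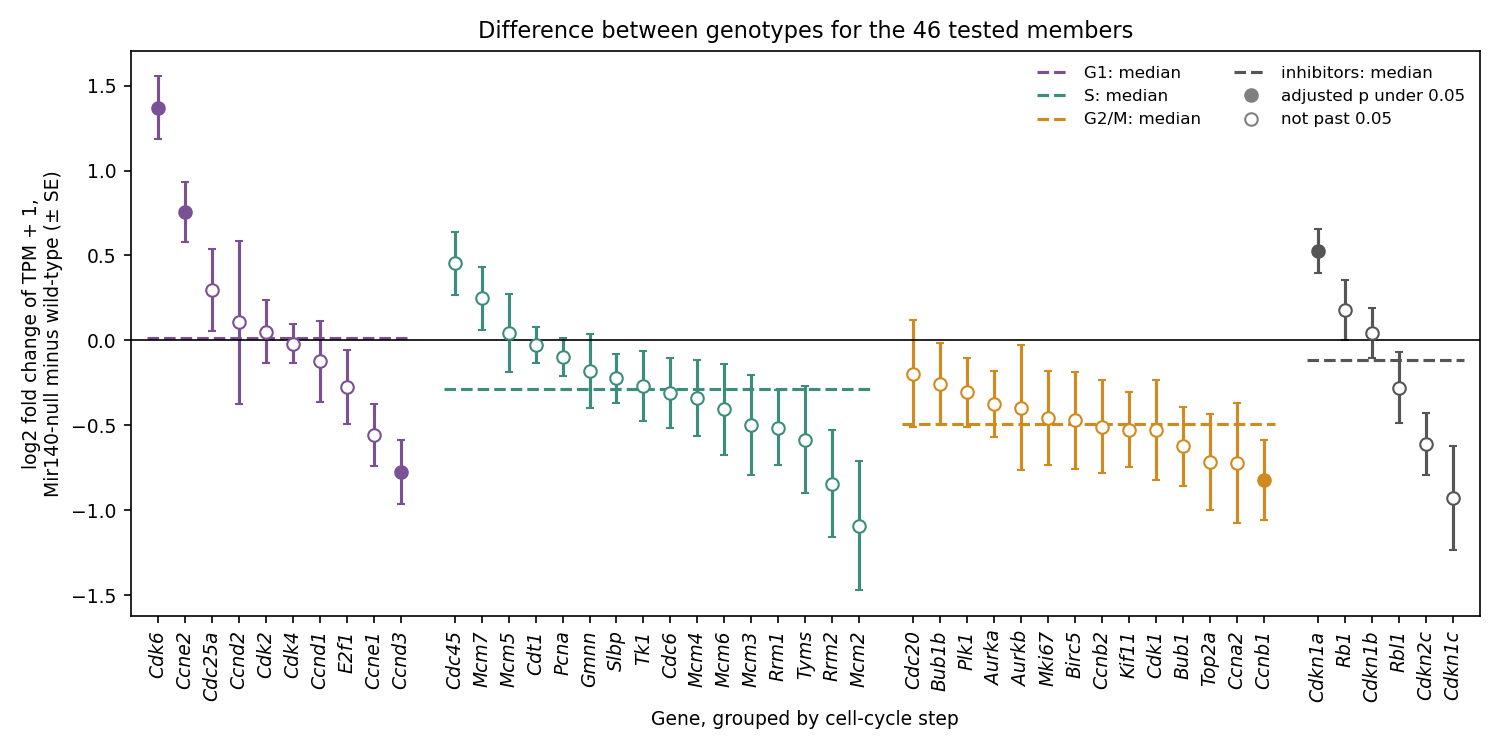
Log2 fold change of TPM + 1 (Mir140-null minus wild-type, y axis, error bars ± SE of limma, n = 4 libraries each) of the 46 tested members, grouped by cell-cycle step along the x axis. Filled points passed an adjusted p of 0.05 and dashed lines are group medians. Cdk6 and Ccne2 stood at the top of the G1 genes and Ccnd3 at the bottom, and all 14 G2/M genes lay below 0.

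Cdk6, a kinase partner of the D-type cyclins, had the largest increase of the members tested (ENSMUSG00000040274, chr5:3341485-3531008 on the plus strand of GRCm38). Its level was 2.71, 4.80, 2.93 and 3.52 TPM in wild-type replicates 1 to 4 and 11.2, 9.83, 8.54 and 12.5 TPM in null replicates 1 to 4. Every null library was above every wild-type library, and the null mean was 3.02-fold higher. The log2 fold change was 1.37 ± 0.18 (SE) with an adjusted p of 0.00651, and Cdk6 passed the threshold in all 16 alternative fits, where the adjusted p ranged from 0.00429 to 0.0465. With null replicates 1 and 2 left out it was 1.36 ± 0.24, with an adjusted p of 0.0465. Cdk4, the other kinase of this step, had 95.3 ± 8.06 TPM in wild-type and 94.3 ± 11.3 TPM in null libraries (SD, n = 4 each). Cdk6 thus made up 3.59% ± 1.2 of the summed Cdk4 and Cdk6 transcripts in wild-type and 10.2% ± 2.3 in null libraries, a share chosen for description after the values were seen and not tested.

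Cdk6 was the called member whose 3′UTR holds a match to the annotated seed of miR-140-3p, and the sequences are shown for that reason. The annotated mature form lies at chr8:107551288-107551308 on the plus strand (RefSeq, GRCm38.p6), and the form without its first base has its seed moved by 1 base. Capitals mark the seed, bases 2 to 8 from the 5′ end:
mmu-miR-140-3p: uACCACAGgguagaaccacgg
mmu-miR-140-3p without its first base: aCCACAGGguagaaccacgg

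The longest annotated 3′UTR of Cdk6 has 10217 bases, and it holds 2 matches to bases 2 to 8 of the annotated form, of which the first overlaps a match to the shifted seed. Capitals mark the bases that pair with the annotated seed in the first and second site, at chr5:3528192-3528217 and chr5:3529135-3529160, and with the shifted seed in the third, at chr5:3528191-3528216, all on the plus strand of GRCm38:
Cdk6 first site: tattagccagcaatattcCTGTGGTc
Cdk6 second site: caaaaggcagttgccctgCTGTGGTt
Cdk6 first site, shifted seed: atattagccagcaatattCCTGTGGt

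Matches to miR-140-5p were not analysed here. The annotated seed had a match in the 3′UTR of 5 of the 46 tested members (10.9%), beside 19.0% of the 12988 tested genes with an annotated 3′UTR. The shifted seed had a match in 6 of the 46 (13.0%), beside 20.2% of those genes. The 5 members with the annotated match were Cdk6, Ccnd2, Cdc6, Cdk1 and Aurkb, and the log2 fold changes of the last 4 were 0.11, -0.31, -0.53 and -0.40, none of them called. The 6 members with the shifted match were Cdk6, Cdc6, Cdk1, Aurkb, Birc5 and Cdkn1a, of which Cdk6 and Cdkn1a were called higher. A match in these letters is a description and does not show that the miRNA acts there.

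Of the E-type cyclins, which activate Cdk2 at the start of replication, Ccne2 was called higher and Ccne1 was not called. Ccne2 (ENSMUSG00000028212, chromosome 4) had 2.73, 1.66, 2.37 and 1.81 TPM in wild-type and 4.11, 3.21, 5.38 and 4.55 TPM in null replicates 1 to 4. No null library overlapped a wild-type library, and the null mean was 2.01-fold higher (log2 fold change 0.75 ± 0.18 SE, adjusted p = 0.0269). Ccne1 had 2.24, 2.74, 2.27 and 2.96 TPM in wild-type and 1.45, 1.23, 2.28 and 0.87 TPM in null replicates, with null replicate 3 inside the wild-type range. Its log2 fold change was -0.56 ± 0.19, with an adjusted p of 0.0723. Ccne2 made up 45.4% ± 8.9 of the summed E-type cyclin transcripts in wild-type and 75.1% ± 6.1 in null libraries, again a share described after the values were seen. The call of Ccne2 held in 8 of 16 alternative fits, with adjusted p from 0.0155 to 0.0729. It was lost without wild-type replicate 2, 3 or 4 and without null replicate 1 or 4, at adjusted p from 0.0539 to 0.0729, and its log2 fold change without null replicates 1 and 2 was 0.93 ± 0.19 (adjusted p = 0.0575).

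Among the D-type cyclins, which carry growth signals to Cdk4 and Cdk6, Ccnd3 was called lower (ENSMUSG00000034165, chromosome 17). Its level was 172, 137, 110 and 128 TPM in wild-type and 57.2, 81.4, 84.8 and 95.3 TPM in null replicates 1 to 4. The lowest wild-type library lay above the highest null library, and the null mean was 1.72-fold lower (log2 fold change -0.78 ± 0.19, adjusted p = 0.0298). Over 16 alternative fits the adjusted p ranged from 0.0207 to 0.126, and the call held in 6. It was lost without wild-type replicate 1, 2 or 4 and without null replicate 1 or 2, at adjusted p from 0.0501 to 0.067, and without null replicates 1 and 2 together the log2 fold change was -0.58 ± 0.18 (adjusted p = 0.126). Ccnd1 and Ccnd2 had no such pattern. Ccnd2 ranged from 87.2 to 215 TPM in wild-type and from 54.5 to 219 TPM in null libraries, and Ccnd1 from 15.2 to 23.0 TPM and from 12.3 to 26.8 TPM.

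**Figure D2:**
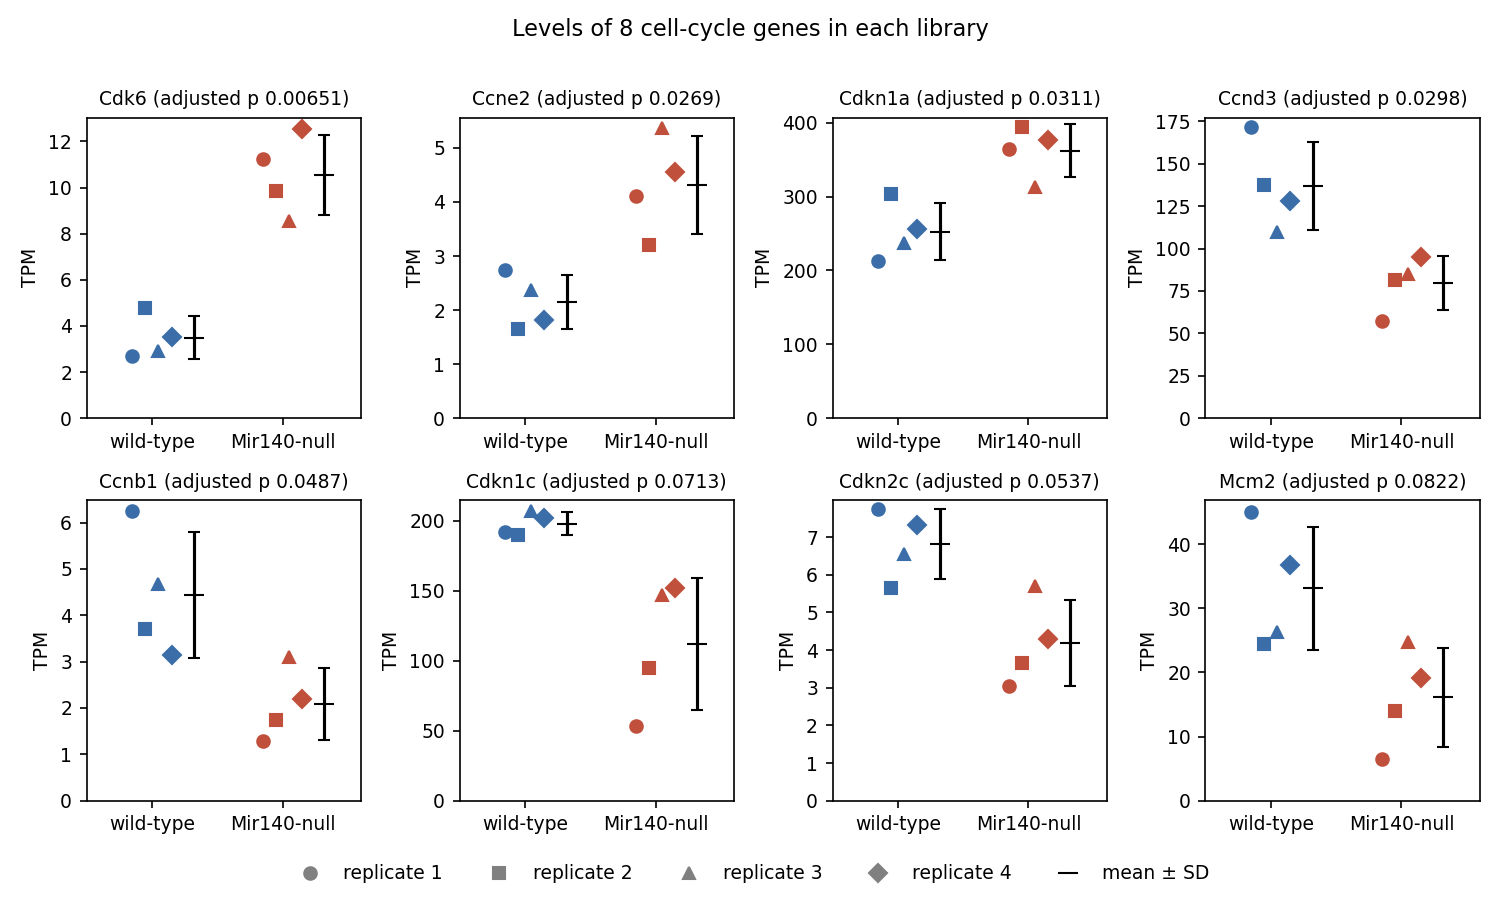
TPM (y axes, from 0) of 8 members in each wild-type (blue) and Mir140-null (red) library, with symbols for replicates 1 to 4 and black bars for the mean ± SD of 4 libraries. The genotypes do not overlap for Cdk6, Ccne2, Cdkn1a, Ccnd3, Ccnb1 and Cdkn1c, and they overlap for Cdkn2c and Mcm2; the adjusted p of limma stands above each panel.

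The other G1 genes were not called. Cdk2, the kinase of the E-type cyclins, had 8.40 ± 1.53 TPM in wild-type and 8.77 ± 1.84 TPM in null libraries. Cdc25a, the phosphatase that activates Cdk2, had 4.13 ± 0.43 and 5.59 ± 2.60 TPM, the wide null spread coming from 9.50 TPM in null replicate 1. E2f1, an activating E2F, had 1.77 ± 0.63 and 1.30 ± 0.58 TPM. The untested E2f2 had 0.38, 0.23, 0.88 and 0.67 TPM in wild-type and 0.18, 0.07, 0.21 and 0.19 TPM in null replicates 1 to 4, all under 1 TPM.

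Of the CIP/KIP inhibitors of the cyclin-dependent kinases, Cdkn1a was called higher, and Cdkn1b and Cdkn1c were not called. Cdkn1a (p21, ENSMUSG00000023067, chromosome 17), a target of p53, had 212, 304, 238 and 256 TPM in wild-type and 365, 395, 313 and 377 TPM in null replicates 1 to 4. The groups did not overlap, though wild-type replicate 2 and null replicate 3 lay close. The null mean was 1.44-fold higher (log2 fold change 0.53 ± 0.13, adjusted p = 0.0311). Over 16 alternative fits the adjusted p ranged from 0.0254 to 0.163 and the call held in 5. It was lost without wild-type replicate 1, 3 or 4 and without null replicate 1, 2 or 4, at adjusted p from 0.0619 to 0.0822, and without null replicates 1 and 2 together the log2 fold change was 0.45 ± 0.17 (adjusted p = 0.163).

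Cdkn1c (p57), an inhibitor that chondrocytes express as they leave the cycle, had a narrow range in wild-type cartilage and a wide one in the nulls. Its level was 192, 190.0, 207 and 202 TPM in wild-type and 53.3, 95.0, 147 and 152 TPM in null replicates 1 to 4. All null libraries were below all wild-type libraries, and the lowest values were those of null replicates 1 and 2, which stood apart in the fibroblast genes. The log2 fold change was -0.93 ± 0.31 (adjusted p = 0.0713), and without these replicates it was -0.40 ± 0.08 (adjusted p = 0.061), with a range from 0.00641 to 0.211 over all alternative fits. Cdkn1b (p27) had 10.76 ± 1.75 TPM in wild-type and 11.04 ± 1.15 TPM in null libraries. As a description, Cdkn1a made up 54.6% ± 4.2 of the summed CIP/KIP transcripts in wild-type and 75.0% ± 8.6 in null libraries.

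Of the INK4 inhibitors of Cdk4 and Cdk6, Cdkn2c (p18) had 7.75, 5.64, 6.55 and 7.32 TPM in wild-type and 3.05, 3.65, 5.71 and 4.30 TPM in null replicates 1 to 4. Null replicate 3 was just above wild-type replicate 2, and the log2 fold change of -0.61 ± 0.18 had an adjusted p of 0.0537. Its adjusted p ranged from 0.0214 to 0.243 over the alternative fits and was under the threshold in 3 of 16. Cdkn2a stayed between 0.08 and 0.29 TPM in all 8 libraries. Of the pocket proteins, Rb1 had 3.91 ± 0.86 TPM in wild-type and 4.52 ± 0.75 TPM in null libraries, and Rbl1 had 2.38 ± 0.90 and 1.72 ± 0.30 TPM, neither called.

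None of the 16 S-phase genes was called by limma at the adjusted threshold. At an unadjusted p under 0.05 limma gave 3 with lower and 1 with higher null values. Over all 17177 tested genes it gave 2558 with lower and 3263 with higher null values. The log2 fold change was below 0 for 13 of the 16, from -1.09 for Mcm2 to 0.45 for Cdc45. The subunits of the MCM helicase, the ring that unwinds DNA at the replication fork, had values of both signs, and whether they differed from one another was not tested. Mcm2 had 45.0, 24.4, 26.3 and 36.8 TPM in wild-type and 6.51, 13.9, 24.8 and 19.2 TPM in null replicates 1 to 4. Null replicate 3 reached the wild-type range and null replicate 1 was far below it, and the log2 fold change of -1.09 ± 0.38 had an adjusted p of 0.0822 (0.0327 to 0.292 over the alternatives). Without null replicates 1 and 2 it was -0.54 ± 0.28 (adjusted p = 0.284). Mcm3, Mcm4 and Mcm6 had log2 fold changes of -0.50, -0.34 and -0.41, and Mcm5 and Mcm7 of 0.05 and 0.25, each with overlapping groups and none called.

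Of the genes that make DNA precursors, both subunits of ribonucleotide reductase had lower null means without being called. Rrm2, the subunit whose amount peaks in S phase, had 10.4, 4.61, 6.39 and 6.48 TPM in wild-type and 1.67, 3.53, 5.79 and 3.14 TPM in null replicates 1 to 4 (log2 fold change -0.84 ± 0.31, adjusted p = 0.0991). Rrm1 had 8.70 ± 2.25 and 5.75 ± 1.34 TPM. Thymidylate synthase (Tyms) had 8.32 ± 2.36 and 5.38 ± 2.52 TPM, and thymidine kinase (Tk1) 4.55 ± 0.96 and 3.66 ± 1.20 TPM. The groups overlapped for each of these genes.

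None of the genes that load or run the replication fork was called. Pcna, the sliding clamp of the DNA polymerases and the most abundant S gene, had 84.4 ± 7.62 TPM in wild-type and 79.0 ± 8.81 TPM in null libraries. The licensing factor Cdt1 had 26.7 ± 2.65 and 26.1 ± 1.75 TPM, its inhibitor geminin (Gmnn) 1.93 ± 0.41 and 1.64 ± 0.67 TPM, and the loader Cdc6 1.32 ± 0.51 and 0.87 ± 0.40 TPM. Slbp, which binds histone mRNA, had 45.3 ± 2.79 and 39.1 ± 7.22 TPM. Cdc45, a helicase cofactor, was the S gene with the largest positive log2 fold change, 0.45 ± 0.19 (adjusted p = 0.128), at 1.71, 0.89, 2.17 and 1.54 TPM in wild-type and 2.96, 1.88, 2.75 and 2.40 TPM in null replicates.

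In the G2/M group the direction was uniform and few genes passed the test. All 14 genes had a log2 fold change below 0, from -0.82 to -0.20, and this held under both the deposited scaling and median-ratio scaling. One of them, Ccnb1 (cyclin B1, the activator of Cdk1 at the entry into mitosis, ENSMUSG00000041431, chromosome 13), was called lower. By limma, 4 of the 14 had lower null values at an unadjusted p under 0.05, as did 2558 of all 17177 tested genes. Ccnb1 had 6.24, 3.70, 4.67 and 3.15 TPM in wild-type and 1.29, 1.73, 3.11 and 2.19 TPM in null replicates 1 to 4. The groups did not overlap, but the highest null library and the lowest wild-type library were nearly level. The null mean was 2.13-fold lower (log2 fold change -0.82 ± 0.24, adjusted p = 0.0487), and the adjusted p ranged from 0.0275 to 0.248 over 16 alternative fits, of which 3 kept the call. It was kept without null replicate 3 and lost without any 1 of the other 7 libraries, at adjusted p from 0.0616 to 0.113. Without null replicates 1 and 2 the log2 fold change was -0.55 ± 0.26 (adjusted p = 0.248).

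The remaining 13 G2/M genes overlapped between genotypes. Top2a, the topoisomerase that untangles replicated DNA, had 12.4, 6.74, 10.8 and 7.42 TPM in wild-type and 3.10, 5.06, 8.39 and 5.08 TPM in null replicates 1 to 4 (log2 fold change -0.72 ± 0.28, adjusted p = 0.116). Ccna2, cyclin A2, had 9.64, 4.50, 7.02 and 4.74 TPM and 2.60, 2.03, 7.44 and 2.93 TPM, so that null replicate 3 was above 3 of the wild-type libraries. The spindle checkpoint kinase gene Bub1 had 2.78, 1.57, 1.33 and 2.01 TPM and 0.45, 0.74, 1.77 and 0.72 TPM, with again only null replicate 3 inside the wild-type range. Mki67, the gene of the Ki-67 proliferation antigen, had 4.22 ± 1.45 and 2.87 ± 1.38 TPM, and Cdk1, the mitotic kinase itself, 11.1 ± 2.35 and 7.81 ± 3.65 TPM. Ccnb2 (cyclin B2) and the spindle motor gene Kif11 had log2 fold changes of -0.51 and -0.53. The mitotic kinase genes Aurka, Aurkb and Plk1 had -0.38, -0.40 and -0.31, the survivin gene Birc5 -0.47, the checkpoint gene Bub1b -0.26 and the activator of the anaphase-promoting complex Cdc20 -0.20, none of them called.

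The libraries of a genotype kept much the same order across the G2/M genes. Wild-type replicate 1 was the highest wild-type library for 12 of the 14 genes, null replicate 3 the highest null library for 13, and null replicate 1 the lowest null library for 10. Summed over the 14 genes, the level was 102, 50.3, 73.7 and 59.7 TPM in wild-type and 35.4, 39.9, 72.4 and 40.5 TPM in null replicates 1 to 4. Null replicate 3 was thus level with wild-type replicate 3, and the other 3 null libraries were below all 4 wild-type libraries. Col1a1 had 1544, 793, 1483 and 856 TPM in wild-type and 47.9, 50.1, 1326 and 898 TPM in null replicates 1 to 4. The orders matched in part. Wild-type replicate 1 and null replicate 3 had the most Col1a1 and the highest G2/M sum of their genotype, but the summed fibroblast markers of the wild-type libraries peaked in replicate 3, and null replicate 4 had a G2/M sum level with that of null replicate 2. For the 16 S genes the sum was 305, 234, 259 and 268 TPM and 183, 200, 276 and 229 TPM, with null replicate 3 the highest null library for 13 of 16 genes.

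**Figure D3:**
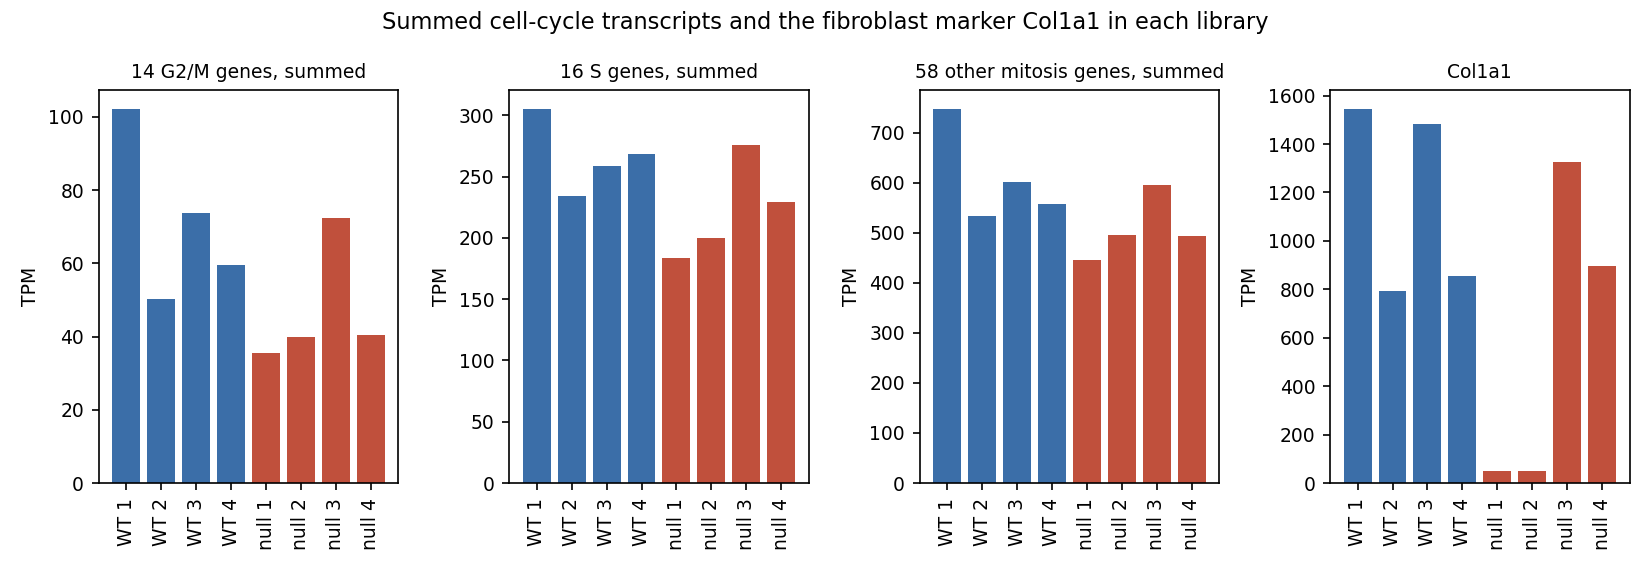
TPM (y axes, from 0) in each library, wild-type in blue and Mir140-null in red, summed over the 14 G2/M members, the 16 S members and 58 other mitosis genes, and of the fibroblast collagen gene Col1a1. Null replicate 3 has the highest sums of the null libraries and null replicates 1 and 2 have Col1a1 at 47.9 and 50.1 TPM.

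The G2/M and S medians moved away from 0 without null replicate 3 and toward 0 without null replicates 1 and 2. In the former fit the median log2 fold change was -0.66 for the G2/M and -0.44 for the S genes, and 8 members were called lower (Bub1, Ccna2, Ccnb1, Ccnd3, Ccne1, Cdkn2c, Mcm2 and Rrm2) and 3 higher, beside 7.07% and 9.04% of all tested genes. In the latter the medians were -0.30 and -0.02, 13 of 14 G2/M and 9 of 16 S genes lay below 0, and Cdk6 alone of the members was called, beside 1.22% of all tested genes called lower and 2.08% called higher. In that fit limma gave 2 members with lower and 3 with higher values at an unadjusted p under 0.05. The number of all tested genes at that level in that fit was not counted. With the summed fibroblast markers as a covariate the medians were -0.18 and -0.02, all 14 G2/M genes stayed below 0, and the called members were Cdk6 and Ccne2. Both of the last 2 fits were added after the data were seen. The medians also moved toward 0 without wild-type replicate 1 alone, to -0.32 for the G2/M and -0.21 for the S genes. In that fit 13 of 14 G2/M genes lay below 0, and the called members were Cdk6 and Ccne2.

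**Figure D4:**
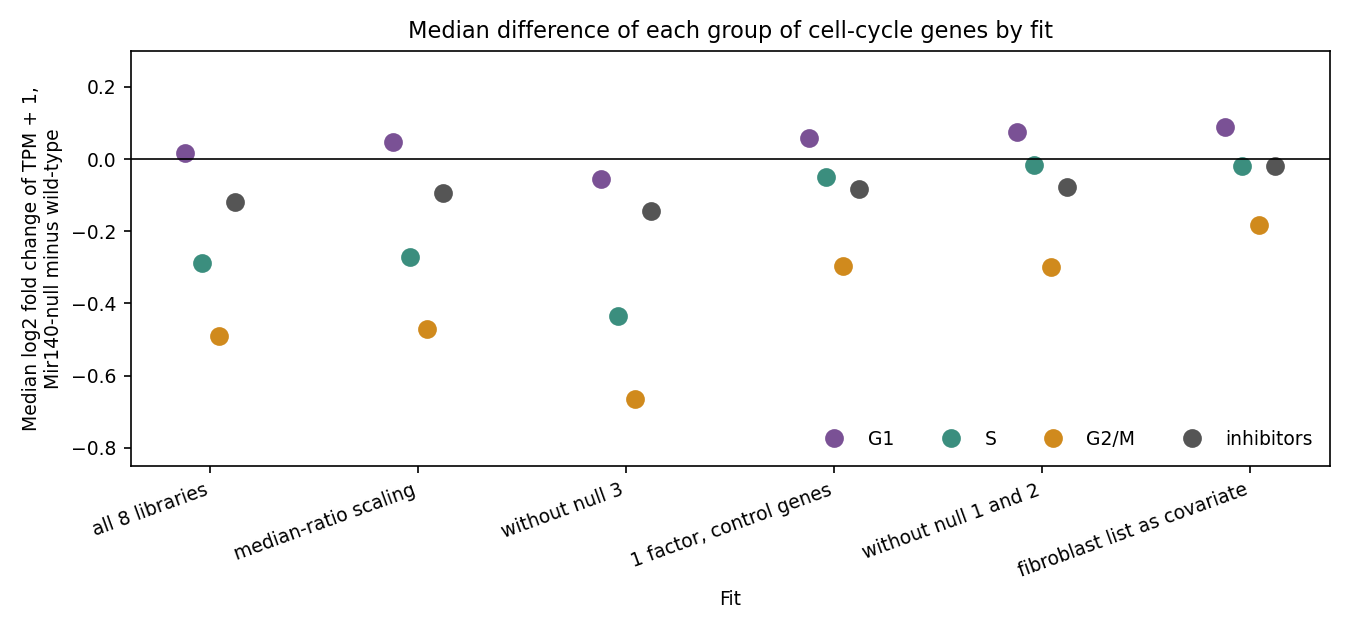
Median log2 fold change of TPM + 1 (y axis, Mir140-null minus wild-type) over the tested G1, S, G2/M and inhibitor genes in 6 fits (x axis). The G2/M median stays below 0 in all 6, from -0.66 without null replicate 3 to -0.18 with the fibroblast markers as covariate, and the S median comes to -0.02 in the last 2.

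The G2/M genes also share promoter elements that the choice of members did not use. Late cell-cycle genes are known to carry a CHR element, bound by the DREAM and MuvB complexes, near a CCAAT box, bound by NF-Y, while many replication genes carry E2F sites. The windows upstream of the RefSeq start (GRCm38.p6) are shown for the called Ccnb1 and for G2/M genes with both elements. Capitals mark CHR (TTTGAA) and CCAAT on either strand and, in Ccnb1, an E2F motif whose letters overlap the first CCAAT box. The windows are bases -80 to -1 from the start for Cdk1 (chr10:69352913-69352992, minus strand), Top2a (chr11:99024190-99024269, minus), Cdc20 (chr4:118437344-118437423, minus) and Kif11 (chr19:37376302-37376381, plus), and bases -110 to -61 for Ccnb1 (chr13:100786547-100786596, minus):
Cdk1: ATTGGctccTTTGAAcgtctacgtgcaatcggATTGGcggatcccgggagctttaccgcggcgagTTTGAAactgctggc
Top2a: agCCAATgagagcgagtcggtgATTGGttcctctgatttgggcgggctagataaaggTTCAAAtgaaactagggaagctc
Cdc20: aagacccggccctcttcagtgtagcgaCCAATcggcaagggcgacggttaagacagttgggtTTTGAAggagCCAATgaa
Kif11: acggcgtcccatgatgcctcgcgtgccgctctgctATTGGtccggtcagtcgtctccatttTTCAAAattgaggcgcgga
Ccnb1: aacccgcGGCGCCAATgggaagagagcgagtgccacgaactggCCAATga

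GENCODE M21 starts the first exon of Cdk1, Cdc20 and Ccnb1 further upstream than RefSeq, so that the last bases of these windows lie in that exon. In windows from 250 bases before to 50 bases after the start, RefSeq promoters were found for 39 of the 48 members, 45 promoters in all. CHR was present in 9 of 12 G2/M promoters (75%), 2 of 15 S promoters, 1 of 10 G1 promoters and 0 of 8 promoters of inhibitors, beside 17.9% of 32851 promoters of all genes. The CCAAT box was present in 11 of 12 G2/M and 11 of 15 S promoters, beside 37.4% of all promoters. E2F motifs (TTTCCCGC, TTTGGCGC, TTCCCGCC or TTGGCGCC, both strands, overlaps allowed) were present in 7 of 15 S promoters (46.7%) and 2 of 12 G2/M promoters, beside 3.77% of all promoters. The 9 members with CHR in G2/M were Aurka, Bub1b, Ccnb2, Cdc20, Cdk1, Kif11, Mki67, Plk1 and Top2a, none of which was called, and the Ccnb1 window held none of these CHR letters. Matches describe the letters of these windows only.

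**Figure D5:**
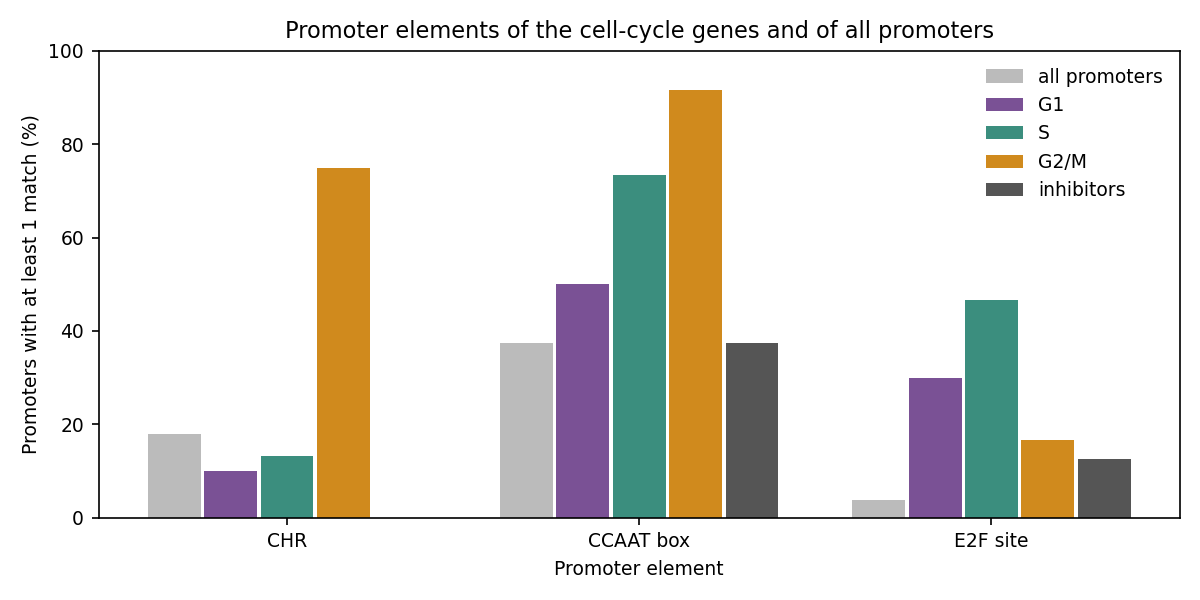
Share of promoters with at least 1 match (y axis, %) to the CHR, CCAAT box and E2F motifs (x axis), for all RefSeq promoters (grey) and for those of the G1, S, G2/M and inhibitor members. CHR is in 75% of G2/M promoters and 17.9% of all promoters, and E2F motifs are in 46.7% of S promoters and 3.77% of all promoters.

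The other genes of the pathway were read from 4 lists of 160 genes, of which 157 were tested, 7 called higher (4.46%) and 4 called lower (2.55%), beside 10.5% and 6.4% of all tested genes. Their log2 fold change was below 0 for 74.5%, with a median of -0.25. Among 56 tested mitosis genes 52 lay below 0 (median -0.45). The 2 called mitosis genes were both lower. Cenpk, a kinetochore subunit, had 5.17, 2.53, 3.40 and 2.62 TPM in wild-type and 1.05, 1.16, 1.83 and 0.75 TPM in null replicates 1 to 4 (adjusted p = 0.0239). Cdca3, a trigger of mitotic entry, had 11.5, 6.84, 8.30 and 6.31 TPM and 3.05, 3.63, 5.67 and 2.82 TPM (adjusted p = 0.0315). The groups overlapped for neither gene, but no gene of this list was called without null replicate 1, without null replicate 2 or without wild-type replicate 3. Over all tested genes the number called lower also fell in these fits, from 1100 to 585, 423 and 440. No gene of this list was called higher. At an unadjusted p under 0.05 limma gave 1 with a higher and 15 with lower null values, beside 3263 and 2558 of all 17177 tested genes.

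Among 55 other replication genes the median was -0.16. The origin subunit Orc2 and the polymerase epsilon subunit Pole4 were called higher, at 1.45-fold and 1.32-fold, and Timeless, a fork protection factor, was called lower, 3.64% and 1.82% of the list. No gene of it was called without null replicate 2 or without wild-type replicate 4. Over all tested genes these fits called 779 and 879 higher, against 1797 with all libraries, and 423 and 419 lower, against 1100. Timeless had 6.53, 4.18, 5.84 and 4.63 TPM in wild-type and 3.04, 1.77, 3.85 and 1.91 TPM in null replicates (log2 fold change -0.81 ± 0.22, adjusted p = 0.0412), with no overlap.

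Of 25 tested genes around the G1 and pocket-protein step, 3 were called higher (12%, beside 10.5% of all tested genes) and none lower. At an unadjusted p under 0.05 limma gave 4 with higher and 1 with lower null values, beside 3263 and 2558 of all 17177 tested genes. E2f3, an activating E2F, had 1.70, 2.31, 1.95 and 2.003 TPM in wild-type and 6.94, 4.94, 4.08 and 6.90 TPM in null replicates 1 to 4, a 2.87-fold difference (log2 fold change 1.15 ± 0.18, adjusted p = 0.00876). E2f4, a repressing E2F that acts with the pocket proteins, had 5.67, 5.03, 6.32 and 7.36 TPM and 15.8, 12.2, 8.91 and 10.1 TPM (1.93-fold, adjusted p = 0.0253). Cdk7, the kinase that activates other cyclin-dependent kinases, had 14.9 ± 1.23 and 23.5 ± 5.35 TPM (1.58-fold, adjusted p = 0.0417). Without null replicates 1 and 2 no gene of this list was called (0), beside 2.08% of all tested genes called higher and 1.22% called lower.

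Of 21 genes of the p53 response, Trp53inp1 and the death receptor gene Fas were called higher and Pmaip1 (Noxa, a promoter of apoptosis) lower, 9.52% and 4.76% of the list beside 10.5% and 6.4% of all tested genes. Without null replicate 2 no gene of the list was called (0), and over all tested genes 779 were called higher and 423 lower. Without null replicates 1 and 2 together 2 were called, beside 2.08% of all tested genes called higher and 1.22% called lower in that fit. Trp53inp1 had 8.24 ± 0.93 TPM in wild-type and 16.8 ± 4.88 TPM in null libraries, and Fas 25.1 ± 5.03 and 37.7 ± 3.50 TPM. Pmaip1 had 9.23, 7.70, 7.52 and 7.80 TPM in wild-type and 0.27, 0.78, 3.81 and 2.37 TPM in null replicates 1 to 4, lowest in the libraries with least Col1a1. The median log2 fold change of the list was -0.07 and 13 of the 21 lay below 0.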

How the data were processed

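RNA-seq libraries of rib chondrocytes from 4 wild-type and 4 Mir140-null mice were grouped by labelled genotype. Each library's deposited values are TPM summed per Ensembl gene, which the authors derived with Salmon (version not given in the sources used here) from single-end reads and the mm10 transcriptome. The study modelled counts with RUVSeq and DESeq2, which TPM do not allow. Identifiers on several lines were counted once. Genes reaching 0.5 TPM in 4 or more of the 8 libraries entered a limma 3.58.1 fit (R 4.3.3; log2(TPM + 1), mean-variance trend, genotype as the only term, two-sided), with Benjamini-Hochberg adjustment and a threshold of 0.05, tested on simulated data. This scale understates the change of low genes. Symbols, positions and 3′UTRs came from GENCODE M21, promoters and miRNA from RefSeq. Every member is named, and from the other pathway lists the called genes with the 3 largest changes in each direction. The members and lists were chosen with earlier results of these data known. Alternatives were a pseudocount of 0.1, no filter, median-ratio scaling, 1 factor of unwanted variation from residuals or control genes, a replicate block, each library left out, and 2 fits added after the data were seen.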

Additional observations from a re-analysis of the deposited data

Results flagged for a closer look

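In 3 of 96 groups of 4 libraries (48 genes in each genotype) the highest library lay apart from the other 3 by more of the range than Dixon's 95% limit for 4 values, which chance alone exceeds in about 1 in 20 groups. Cdc25a had 9.497 TPM in Mir140-null replicate 1, against 4.17 to 4.448 TPM in the other null libraries. E2f1 had 2.71 TPM in wild-type replicate 1, against 1.416 to 1.488 TPM in the other wild-type libraries. Ccna2 had 7.443 TPM in Mir140-null replicate 3, against 2.033 to 2.934 TPM in the other null libraries.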

How the results depend on the processing

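The comparison was limited by 4 libraries a genotype, by TPM without counts, by Mir140-null replicates 1 and 2, which stood apart, and by a mitochondrial share that did not overlap between genotypes and cannot be told apart from them. It was also limited by the use of wild-type and null lines, as line and genotype cannot be told apart. Cdk6 was called in every alternative fit listed here, and no called member changed direction in any. Against 1797 higher and 1100 lower genes and 3 higher and 2 lower members, the numbers of called features moved as follows, and the cause was not tested. With a pseudocount of 0.1, 1 member was lower and no G2/M gene was called (0). Without the filter, 977 genes were higher and 539 lower, with 1 higher and 0 lower members, 1 G1, 0 G2/M and 0 inhibitor genes, and 1, 1, 0 and 1 genes of the other G1, replication, mitosis and p53 lists. With median-ratio scaling, 2 inhibitors and 5 p53 genes were called. With 1 factor from residuals, 2460 genes were higher and 2016 lower, with 5 members lower, 1 S gene, 3 inhibitors and 6, 9, 4 and 8 genes of the other lists. With 1 factor from control genes, 979 were higher and 426 lower, with 0 members lower, 0 G2/M and 0 inhibitor genes, and 1, 1, 0 and 2 genes of the other lists. With the fibroblast markers as a covariate, 772 were higher and 354 lower, with 0 members lower, 0 G2/M and 0 inhibitor genes, and 1, 0, 0 and 2 genes of the other lists. Without Mir140-null replicates 1 and 2, 357 were higher and 210 lower, with 1 member higher and 0 lower, 1 G1, 0 G2/M and 0 inhibitor genes, and 0, 0, 0 and 2 genes of the other lists.

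With 1 library left out in turn, 779 to 1553 genes were higher and 419 to 1214 lower, 1 to 3 members higher and 0 to 8 lower. The called genes were 1 to 4 for G1, 0 to 2 for S, 0 to 3 for G2/M and 0 to 2 for inhibitors, and for the other G1, replication, mitosis and p53 lists 1 to 3, 0 to 5, 0 to 4 and 0 to 3. Library numbers gave no clear sign of pairing, though so few libraries cannot settle whether samples were paired. Deviations of same-numbered libraries from their genotype means correlated at 0.031, 0.016, 0.069 and -0.009 across genes, not always highest for the same number. With the replicate block, 671 genes were higher and 454 lower, Cdk6 was the 1 member called (1 G1 gene), 0 members were lower, 0 G2/M and 0 inhibitor genes were called, and the other lists had 1, 1, 0 and 0.

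Members that changed sign were uncalled in both fits, and the values are log2 fold changes. Without Mir140-null replicates 1 and 2 these were Ccnd1 at 0.24, Cdk4 at 0.014, Cdt1 at 0.037, Gmnn at 0.0200, Mcm6 at 0.075, Pcna at 0.012 and Bub1b at 0.029. With 1 factor from control genes these were Ccnd1 at 0.19, Cdk4 at 0.024, Cdt1 at 0.034, Gmnn at 0.035 and Mcm6 at 0.025. With the fibroblast covariate these were Ccnd1 at 0.11, Cdk4 at 0.041, Gmnn at 0.037, Mcm6 at 0.039 and Pcna at 0.018. With median-ratio scaling these were Cdk4 at 0.015 and Cdt1 at 0.00495. With 1 library left out in turn the values that turned lay in ranges of -0.32 to 0.033 for Ccnd1, -0.11 to 0.56 for Ccnd2, -0.0895 to 0.031 for Cdk4, -0.055 to 0.18 for Cdk2, -0.0803 to 0.021 for Cdt1, -0.30 to 0.016 for Gmnn, -0.13 to 0.17 for Mcm5, -0.41 to 0.081 for Cdc20 and -0.063 to 0.11 for Cdkn1b.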
